A study of Homo sapiens with 6 samples.

Results

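The transcripts of 52 genes of autophagy, the lysosome and amino acid sensing by mTORC1 were followed in cells of the established human embryonic stem cell line H9 that had been directed toward nephron progenitor cells. The genes were chosen by name, and each of the 52 had 1 row among the 60107 gene IDs of the deposited count table. All cells were collected at the end of day 9 of the 10-day differentiation, and the groups differed in whether glutamine was in the medium from day 0 on. RNA was sequenced from 3 libraries in complete medium, called with glutamine below, and from 3 libraries under glutamine deprivation, called without glutamine. The labels do not say whether the replicates were separate cultures, so the spread between them may be technical. Levels are given as CPM, counts scaled to a common library total with TMM factors, and a log2 fold change is positive where a gene was higher without glutamine.

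The libraries held 78220507 to 84746566 counts, and all 52 genes passed the filter on low counts that left 22613 genes for testing. The library labelled replicate 1 with glutamine stood apart from its group. Across genes, which are not independent replicates, its log2 CPM had Pearson's r of 0.9758 and 0.9762 with the other libraries with glutamine and of 0.9908 to 0.9927 with the libraries without. Whether the label fits the culture it came from was not tested. The named fold changes below are therefore given for all 6 libraries, and again without that library wherever the call differs. It was singled out by its values in these same data, and leaving it out narrows the spread within its group. Calls and adjusted p from the fit without it are therefore descriptive and are not separate support. The common dispersion, the squared coefficient of variation between replicates beyond counting noise, was 0.0408 in all 6 libraries and 0.0083 without replicate 1 with glutamine. The nephron progenitor genes PAX2, PAX8, WT1 and SIX2 had counts in every library, while NANOG, which marks pluripotent cells, never exceeded 1 count. DPPA4 and LIN28A, also on the pluripotency list, were high in every library, with at least 8877 and 9796 counts. Without glutamine DPPA4 was higher in every library, with means of 141 CPM with glutamine and 246 CPM without. LIN28A was lower in every library, with means of 263 and 136 CPM. The pluripotency sum below is almost wholly made of these genes, which differed in opposite directions. The summed level of the 12 nephron progenitor markers was 1091 to 1834 CPM with glutamine and 1691 to 2227 CPM without. Its members differed in direction: LHX1, GDNF and HOXD11 were higher without glutamine in every library, and EYA1, ITGA8 and CITED1 were lower in every library. For the other 6 the groups overlapped, only through replicate 1 with glutamine. With that library left out, PAX2, PAX8, WT1 and SALL1 were higher without glutamine in every library, and SIX2 and OSR1 were lower. PAX2, for example, measured 150, 17.0 and 12.9 CPM with glutamine and 245, 200 and 146 CPM without. The 5 endothelial and blood markers, all counted in every library, summed to 26.5 to 88.5 CPM with glutamine and 14.0 to 18.8 CPM without. Most of this sum was KDR, at 24.3, 82.3 and 69.8 CPM with glutamine and 13.5, 12.7 and 17.5 CPM without. PECAM1 and CDH5 were also lower without glutamine in every library, at low levels. TAL1 and PTPRC overlapped between groups, and PTPRC had 1 to 7 counts a library. The sums of the pluripotency, primitive streak, somite, neural, endoderm and stroma markers overlapped between groups, as did the nephron progenitor sum. Except for stroma, these sums overlapped only through replicate 1 with glutamine. In replicates 2 and 3 with glutamine, the nephron progenitor and neural sums lay below every library without glutamine. Their pluripotency, primitive streak, somite and endoderm sums lay above every library without. For example, the neural sum was 46.7 and 44.9 CPM against 68.8 to 93.2 CPM, and the somite sum 278 and 279 CPM against 157 to 223 CPM. Most of the neural difference was DCX, at 18.4 and 19.2 CPM against 51.0, 49.1 and 75.8 CPM. TUBB3 was also higher without glutamine in every library, while PAX6 and NEUROG2 were lower in every library. SOX2 was lower than in replicates 2 and 3 with glutamine, and SOX1 overlapped. Of the somite markers, PAX3, MEOX2, TCF15 and MEOX1 were lower without glutamine than in those replicates, and PAX1 had at most 2 counts. FOXC2 was higher, at 80.3 and 72.3 CPM against 137, 113 and 90.3 CPM. No endoderm marker exceeded 1.49 CPM. HHEX and SOX17 were lower without glutamine in every library, and CER1, GATA4, FOXA2 and AFP were higher in every library. The part of these shifts in the fold changes below was not tested. In bulk RNA, fewer cells of a type and less RNA per cell cannot be told apart.

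Autophagy encloses cell material in a double membrane, the autophagosome, and delivers it to lysosomes for breakdown and reuse of the amino acids. The kinase mTORC1, recruited to the lysosome by Rag GTPases when amino acids are plentiful, holds autophagy back by phosphorylating the ULK1 complex, and keeps the transcription factors TFEB and TFE3 out of the nucleus. When mTORC1 activity drops, these factors enter the nucleus and bind E-box sites in the promoters of lysosomal and autophagy genes. Most of this control acts on proteins and their location, which RNA counts do not measure.

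Because the TFEB family reads a DNA element, the promoters of 5 of the genes are shown, chosen after their values were seen. Each is 300 bases long, from 250 before to 50 after the RefSeq start site (GRCh38.p14), written 5′ to 3′ on the gene's strand, with every CACGTG, the E-box core, in capitals. The LAMP1 promoter lies at chr13:113296989-113297288 (plus strand), CTSD at chr11:1763878-1764177 (minus strand), ATG14 at chr14:55411781-55412080 (minus strand), RRAGB at chrX:55717499-55717798 (plus strand) and TSC2 at chr16:2047735-2048034 (plus strand).
LAMP1: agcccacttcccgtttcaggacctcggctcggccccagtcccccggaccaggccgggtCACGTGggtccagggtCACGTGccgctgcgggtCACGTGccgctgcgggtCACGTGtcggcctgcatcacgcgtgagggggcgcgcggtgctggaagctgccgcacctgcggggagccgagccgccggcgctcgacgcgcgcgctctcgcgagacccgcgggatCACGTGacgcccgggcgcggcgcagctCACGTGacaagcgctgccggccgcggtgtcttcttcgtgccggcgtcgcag
CTSD: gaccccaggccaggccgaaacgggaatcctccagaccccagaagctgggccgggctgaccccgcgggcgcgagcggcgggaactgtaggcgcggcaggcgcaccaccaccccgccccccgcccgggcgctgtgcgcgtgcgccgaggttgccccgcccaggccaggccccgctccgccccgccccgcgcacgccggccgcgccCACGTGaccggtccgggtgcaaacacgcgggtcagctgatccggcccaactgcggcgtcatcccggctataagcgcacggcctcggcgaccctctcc
ATG14: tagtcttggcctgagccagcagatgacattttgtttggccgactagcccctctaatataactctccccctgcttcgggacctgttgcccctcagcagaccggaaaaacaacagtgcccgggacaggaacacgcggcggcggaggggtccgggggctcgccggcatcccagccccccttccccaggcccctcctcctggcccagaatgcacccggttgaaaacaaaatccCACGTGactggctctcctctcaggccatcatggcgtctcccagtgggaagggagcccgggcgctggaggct
RRAGB: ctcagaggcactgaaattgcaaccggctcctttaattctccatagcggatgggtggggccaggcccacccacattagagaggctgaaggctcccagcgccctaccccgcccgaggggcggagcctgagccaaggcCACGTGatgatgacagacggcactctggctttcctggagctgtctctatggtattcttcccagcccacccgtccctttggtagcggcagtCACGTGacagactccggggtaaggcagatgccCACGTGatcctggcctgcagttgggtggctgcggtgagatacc
TSC2: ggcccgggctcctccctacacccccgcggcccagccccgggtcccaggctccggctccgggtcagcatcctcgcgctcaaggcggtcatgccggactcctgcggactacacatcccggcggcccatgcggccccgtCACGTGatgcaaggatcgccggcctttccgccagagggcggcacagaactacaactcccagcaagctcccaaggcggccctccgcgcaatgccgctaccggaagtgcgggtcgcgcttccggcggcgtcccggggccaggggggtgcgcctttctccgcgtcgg

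LAMP1 held 6 copies of CACGTG, RRAGB 3, and CTSD, ATG14 and TSC2 held 1 each. The copies of LAMP1 began 192, 176, 159, 142, 28 and 1 bases before the start site, and those of CTSD and ATG14 began 47 and 21 bases before it. A window was at hand for 43 of the 52 genes, and 7 of these (16.3%) held the core, the other two being ATG3 and RRAGC. Of all 27305 windows of the same length, 7.43% held it. All motifs were searched on both strands. The longer form TCACGTG contains the core and was found in the same number of members, 7 of 43, and in 3.82% of all windows. The element TGATGNAA, a form of the composite site bound by the amino acid response factor ATF4, occurred in 3.67% of all windows and in 1 member, TSC2, where it overlapped the E-box core. The 7 genes with the core lay on both sides of 0: without glutamine LAMP1 and CTSD were higher in every library, ATG14 was lower in every library, and the ranges of ATG3, RRAGB, RRAGC and TSC2 overlapped between groups. A match is a description of the letters in this window and not a bound site.

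No gene of the 52 passed an adjusted p under 0.05 in all 6 libraries with edgeR's quasi-likelihood test, against 1 of 22613 genes tested (0.00442%). At an unadjusted p under 0.05, 19 of the 52 (36.5%) passed, against 29.7% of all genes. Of the 19, 11 were higher without glutamine, against 14.7% of all genes, and 8 lower, against 15.0%. DESeq2 called 6 members, 3 higher (MAP1LC3A, MITF, LAMP1) and 3 lower (ATG14, UVRAG, ATG2B), which is 11.5% of the 52 against 14.0% of all genes tested there. Fold changes were small: they ran from -0.44 to 0.86 on the log2 scale, with a median of 0.02 against 0.00 over all genes. Only 3 members (MITF, MAP1LC3A and GABARAP; 5.77%) lay beyond 0.5 in either direction, against 26.3% of all genes.

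For 15 of the 52 genes (28.8%), the 3 libraries of one group did not overlap the 3 of the other, against 34.2% of all genes. Of these, 9 were higher without glutamine (ATG101, MAP1LC3A, MAP1LC3B, SQSTM1, TFE3, MITF, LAMP1, CTSD and RRAGA), where 17.3% of all genes were, and 6 were lower (ATG14, UVRAG, ATG2B, NBR1, CTSL and FLCN), where 16.9% were. Leaving out replicate 1 with glutamine raised the number of members without overlap to 36, against 63.5% of all genes, and leaving out replicate 3 without glutamine raised it to 23, against 42.6% of all genes. With replicate 1 with glutamine left out, 28 of the 52 (53.8%) were called by edgeR, against 41.3% of all genes. The calls were 17 higher, against 22.3% of all genes, and 11 lower, against 19.0%. The median of the 52 was then 0.05, and that of all genes 0.01. These shares describe the members, and whether the set stands apart from other genes was not tested. Replicate 1 with glutamine was left out because of its values in these data, so the calls without it are not separate support.

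**Figure D1:**
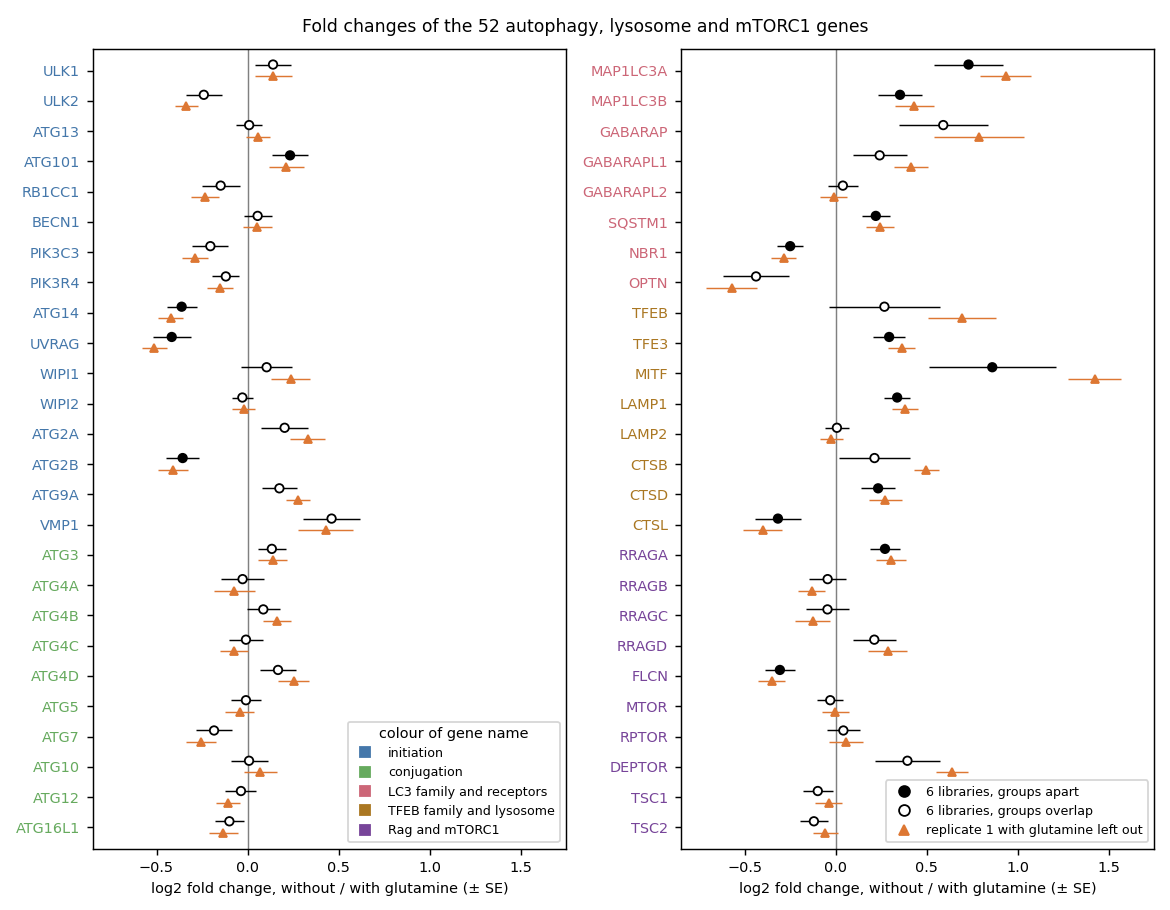
Log2 fold change without against with glutamine (horizontal axis, ± SE) of each of the 52 genes, with names coloured by role; circles are the fit of all 6 libraries, filled where the groups do not overlap, and triangles the fit without replicate 1 with glutamine. Most genes lie near 0, MITF, MAP1LC3A and GABARAP lie farthest right, and OPTN and UVRAG lie farthest left.

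Among the 16 genes that start an autophagosome, 4 (25.0%) separated the groups in all 6 libraries, against 34.2% of all genes. ATG101 was on the higher side and ATG14, UVRAG and ATG2B were on the lower side without glutamine. ATG14 and UVRAG are alternative partners that direct the lipid kinase to forming autophagosomes and to endosomes. ATG14 (ENSG00000126775; chromosome 14, 55366392 to 55411858, minus strand, GRCh38, GENCODE 29) measured 53.6, 61.7 and 61.3 CPM with glutamine and 43.7, 46.4 and 47.3 CPM without. Its means were 58.8 ± 4.54 and 45.8 ± 1.89 CPM (SD, n = 3 each), which differ by -0.36 on the log2 scale (SE 0.08, edgeR adjusted p = 0.0721), or by -0.42 without replicate 1 with glutamine (adjusted p = 0.00107). UVRAG (ENSG00000198382; chromosome 11, 75815167 to 76143195, plus strand) measured 32.7, 41.2 and 40.4 CPM with glutamine and 28.5, 29.3 and 27.8 CPM without. All 3 libraries without glutamine lay below all 3 with it for both genes, and replicate 1 was the lowest of its group. The UVRAG fold change was -0.42 (SE 0.10, adjusted p = 0.0762), and -0.51 without replicate 1 with glutamine (adjusted p = 0.00036). PIK3C3, the catalytic subunit, measured 100.6, 122 and 123 CPM with glutamine and 95.1, 98.3 and 107 CPM without, so its groups overlapped through replicate 1. Its fold change was -0.20 (adjusted p = 0.209), and -0.29 without that library (adjusted p = 0.00969). The other core subunits, the scaffold BECN1 at 0.06 and PIK3R4 at -0.12, were called in neither fit.

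The ULK complex, which passes the mTORC1 signal to the autophagy machinery, had fold changes of both signs. ULK1, the kinase best known as an mTORC1 target, measured 71.8, 75.9 and 68.2 CPM with glutamine and 89.9, 76.3 and 71.6 CPM without, and its log2 fold change of 0.14 was called in neither fit. Its paralog ULK2 measured 82.3, 102 and 104 CPM with glutamine and 79.7, 81.2 and 82.8 CPM without. ULK2 in replicate 1 with glutamine lay within the range without glutamine, and its fold change was -0.24 (SE 0.10, adjusted p = 0.161), or -0.34 without that library (adjusted p = 0.0024). RB1CC1, the large scaffold of the complex, measured 136, 159.7 and 173 CPM with glutamine and 143, 131 and 149.8 CPM without. It had a fold change of -0.15 (adjusted p = 0.363) and was called lower, at -0.23, only in the fit without that library (adjusted p = 0.0359). ATG101, a small adaptor that holds ATG13, measured 6.72, 7.18 and 6.97 CPM with glutamine and 8.50, 7.87 and 8.16 CPM without. Its groups did not overlap, with a fold change of 0.23 (SE 0.10, adjusted p = 0.167) that was called in neither fit. ATG13 itself lay at 0.01.

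The lipid transfer proteins ATG2A and ATG2B, which feed the growing membrane, had fold changes of opposite sign. ATG2B measured 84.4, 103 and 88.1 CPM with glutamine and 73.0, 68.6 and 73.5 CPM without, without overlap. The ATG2B fold change was -0.36 (SE 0.09, adjusted p = 0.0782), and -0.41 without replicate 1 with glutamine (adjusted p = 0.00306). ATG2A measured 28.9, 23.0 and 22.5 CPM with glutamine and 31.9, 27.5 and 26.3 CPM without. The ATG2A fold change was 0.20 (adjusted p = 0.312), and 0.33 without that library (adjusted p = 0.0206). ATG9A, the scramblase that works with them, measured 56.1, 46.2 and 46.5 CPM with glutamine and 55.0, 55.6 and 57.4 CPM without. Replicate 1 with glutamine lay inside the range without it. ATG9A was at 0.17 in all libraries (adjusted p = 0.249) and was called higher, at 0.28, without that library (adjusted p = 0.00923). VMP1, an endoplasmic reticulum scramblase, measured 65.7, 66.5 and 75.0 CPM with glutamine and 72.4, 107 and 106 CPM without. The VMP1 groups overlapped, since replicate 1 without glutamine lay within the range with it, and the fold change of 0.46 (SE 0.16, adjusted p = 0.113) was 0.43 without replicate 1 with glutamine (adjusted p = 0.046). WIPI1 and WIPI2, which read the lipid made by PIK3C3, were at 0.10 and -0.03. In all, 6 of the 16 initiation genes had an unadjusted p under 0.05, against 29.7% of all genes, and 9 were called without replicate 1 with glutamine, 3 higher and 6 lower, against 41.3% of all genes.

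The 10 genes of the conjugation machinery, the enzymes that attach LC3 to lipid, gave few differences: none had an unadjusted p under 0.05, against 29.7% of all genes, none separated the groups, against 34.2%, and DESeq2 called none, against 14.0%. Their fold changes ran from -0.18 for ATG7, the activating enzyme, to 0.17 for ATG4D, a protease that trims LC3. ATG7 measured 21.7, 24.7 and 26.4 CPM with glutamine and 20.0, 22.1 and 21.9 CPM without, and was called lower, at -0.26, without replicate 1 with glutamine (adjusted p = 0.0315). ATG4D measured 16.0, 13.7 and 13.6 CPM with glutamine and 16.9, 16.1 and 15.7 CPM without, and was called higher, at 0.25, in that same fit (adjusted p = 0.0352). On the opposite strand, ATG7 shares 18.1% of its exonic bases with VGLL4, and ATG4D shares 15.0% with KRI1. Whether counting kept the strands apart is not given in the sources used here. The conjugating enzymes ATG3 and ATG10, the ATG12, ATG5 and ATG16L1 complex and the proteases ATG4A, ATG4B and ATG4C lay between -0.10 and 0.13 and were called in neither fit. ATG12, for example, measured 79.7, 91.8 and 96.4 CPM with glutamine and 87.4, 86.6 and 87.3 CPM without. Its libraries without glutamine sat inside the range of those with it.

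The LC3 and GABARAP proteins, which coat the autophagosome and are themselves consumed with it, gave some of the larger fold changes. MAP1LC3A (ENSG00000101460; chromosome 20, 34546854 to 34560345, plus strand) measured 3.46, 2.68 and 2.11 CPM with glutamine and 4.37, 4.56 and 4.77 CPM without. Its means were 2.75 ± 0.678 and 4.57 ± 0.202 CPM (SD, n = 3 each), and its fold change was 0.73 (SE 0.19, edgeR adjusted p = 0.0799), or 0.93 without replicate 1 with glutamine (adjusted p = 0.000634). MAP1LC3B, the paralog most often used as an autophagosome marker, measured 56.3, 44.1 and 52.9 CPM with glutamine and 57.4, 67.3 and 71.1 CPM without. The MAP1LC3B groups were apart by a narrow gap, from 56.3 to 57.4 CPM. The fold change was 0.35 (SE 0.12, adjusted p = 0.117), and 0.43 without replicate 1 with glutamine (adjusted p = 0.0107). GABARAPL1 measured 60.2, 41.2 and 46.3 CPM with glutamine and 52.4, 59.5 and 62.9 CPM without, with replicate 1 with glutamine above 2 of the libraries without. It was at 0.24 in all libraries (adjusted p = 0.302) and at 0.41 without replicate 1 (adjusted p = 0.00628). GABARAPL2, at 70.3, 75.9 and 82.1 CPM with glutamine and 73.6, 81.2 and 79.8 CPM without, was called in neither fit.

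GABARAP itself had few counts, 59, 42 and 38 with glutamine and 80, 55 and 79 without, and its groups overlapped. Its fold change was 0.59 (SE 0.24, adjusted p = 0.161), and 0.79 (SE 0.25, adjusted p = 0.0287) without replicate 1 with glutamine. In GENCODE 29, 42.3% of its principal transcript is shared, on the same strand, with another annotated gene, AC120057.2, which had no count in any library. How reads in such shared exons were counted is not given in the sources used here, and their part in the low count was not tested. How shared reads were counted is also unknown for ATG9A, RRAGC and FLCN, which were not low, with at least 1063 counts in every library. They share 38.8%, 22.9% and 11.9% of all their exonic bases with other genes on the same strand. For FLCN the share of the principal transcript is 30.6%. MAP1LC3B2, a near-identical copy of MAP1LC3B, stood on the other side of 0: it measured 2.91, 5.33 and 4.44 CPM with glutamine and 1.23, 1.33 and 1.12 CPM without. Its fold change was -1.78 (SE 0.25, adjusted p = 0.068), and -1.99 without replicate 1 with glutamine (adjusted p = 8.03e-06); DESeq2 called it lower in all 6 libraries (adjusted p = 3.19e-09). Of the length-scaled level of both copies, MAP1LC3B2 took 20.1 ± 6.61% with glutamine and 5.39 ± 0.789% without (SD, n = 3 each), without overlap. Reads that fit both copies could be divided between them in counting, so the values of each copy are uncertain.

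The cargo receptors, which link ubiquitinated material to LC3, had fold changes of both signs. SQSTM1, also called p62, measured 27.6, 25.7 and 27.3 CPM with glutamine and 32.4, 29.8 and 31.9 CPM without. The libraries without glutamine were all higher, with a fold change of 0.22 (SE 0.08, adjusted p = 0.12), and 0.24 without replicate 1 with glutamine (adjusted p = 0.0311). NBR1, a receptor of related build, measured 161, 173 and 177 CPM with glutamine and 138, 139 and 152 CPM without. Here the libraries without glutamine were all lower, with a fold change of -0.25 (SE 0.07, adjusted p = 0.0902), and -0.29 without that library (adjusted p = 0.00878). OPTN, a receptor for bacteria and mitochondria, measured 10.6, 13.0 and 16.2 CPM with glutamine and 8.45, 11.5 and 9.51 CPM without. Its groups overlapped, and its fold change of -0.44 (SE 0.18, adjusted p = 0.165) was the lowest of the 52. Without replicate 1 with glutamine OPTN was called lower, at -0.57 (adjusted p = 0.00927). SQSTM1 shares 20.7% of its exonic bases with MRNIP on the opposite strand, and the strand setting of the counting is not given in the sources used here. Of the 8 genes of LC3, GABARAP and receptors, 6 had an unadjusted p under 0.05, against 29.7% of all genes. Without replicate 1 with glutamine 7 of them were called, 5 higher and 2 lower, against 41.3% of all genes.

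**Figure D2:**
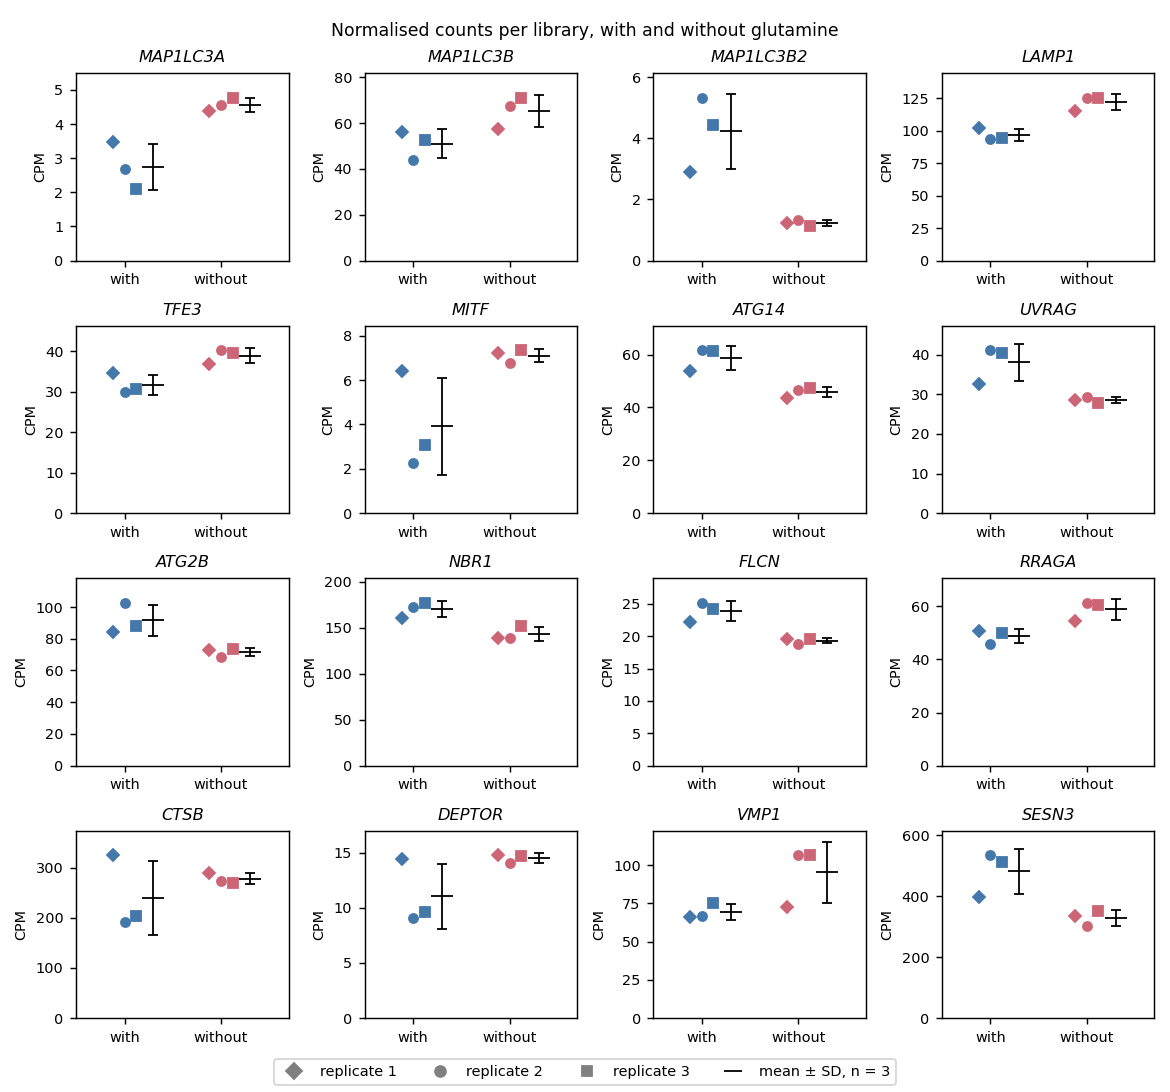
CPM in each library (vertical axis, from 0) for 16 genes, with glutamine in blue and without in red; marker shapes give the replicate number, and the bar is the mean ± SD of 3 libraries. LAMP1, TFE3, ATG14 and FLCN separate the groups, while replicate 1 with glutamine lies near the libraries without for MITF, CTSB and DEPTOR.

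All 3 members of the TFEB family had positive fold changes, with different support. TFE3 measured 34.5, 29.9 and 30.7 CPM with glutamine and 36.8, 40.2 and 39.6 CPM without. Its groups did not overlap, and its fold change was 0.29 (SE 0.09, edgeR adjusted p = 0.0915), or 0.36 without replicate 1 with glutamine (adjusted p = 0.00407). MITF (ENSG00000187098; chromosome 3, 69739435 to 69968337, plus strand), which also drives pigment cell genes, measured 6.41, 2.24 and 3.07 CPM with glutamine and 7.21, 6.75 and 7.35 CPM without. Replicate 1 lay just below the range without glutamine, far from the other libraries of its group. The fold change was 0.86 (SE 0.35, adjusted p = 0.155), and 1.42 (SE 0.14, adjusted p = 5.36e-05) without that library. TFEB measured 2.51, 1.28 and 1.22 CPM with glutamine and 2.37, 1.90 and 1.77 CPM without, so that replicate 1 with glutamine was the highest of all 6 libraries. For TFEB the fold change was 0.27 (SE 0.31, adjusted p = 0.575), and 0.69 without that library (adjusted p = 0.0148). Scaled by exonic length, TFE3 was the main member of the family in every library, at 85.8% to 92.8% of the summed level. MITF took 9.49%, 4.15% and 5.46% of it with glutamine and 10.0%, 8.81% and 9.66% without.

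LAMP1 and LAMP2, the abundant glycoproteins of the lysosomal membrane, behaved differently. LAMP1 (ENSG00000185896; chromosome 13, 113297241 to 113323672, plus strand), whose promoter with 6 E-box cores is printed above, measured 102, 93.3 and 94.3 CPM with glutamine and 115, 125 and 125 CPM without. Its means were 96.5 ± 4.62 and 122 ± 5.95 CPM (SD, n = 3 each), without overlap. The fold change of 0.34 (SE 0.07, adjusted p = 0.0703) had the smallest p of the 52, and it was 0.38 without replicate 1 with glutamine (adjusted p = 0.00196). LAMP2 measured 86.9, 94.8 and 91.6 CPM with glutamine and 91.5, 89.8 and 93.3 CPM without. The LAMP2 fold change was 0.01 ± 0.07 (SE), with the libraries without glutamine inside the range of those with it.

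The cathepsins, proteases of the lysosome, also differed from each other. CTSB measured 325, 191 and 204 CPM with glutamine and 290.5, 274 and 270.4 CPM without. Replicate 1 with glutamine had the highest CTSB level of all 6 libraries, so the fold change of 0.21 (SE 0.19, adjusted p = 0.48) became 0.50 (adjusted p = 0.000367) when it was left out. CTSD measured 43.2, 40.2 and 40.2 CPM with glutamine and 54.0, 47.0 and 44.3 CPM without, without overlap. The CTSD fold change was 0.23 (SE 0.09, adjusted p = 0.152), and 0.27 without that library (adjusted p = 0.0377). CTSD shares 41.7% of its exonic bases, on the same strand, with AC068580.4, which had no count. CTSL was lower without glutamine, at 44.7, 50.6 and 57.7 CPM with glutamine and 35.2, 43.6 and 43.9 CPM without. The CTSL fold change was -0.32 (SE 0.13, adjusted p = 0.153), and -0.40 without that library (adjusted p = 0.0138). In the TFEB family and lysosome group of 8, 5 had an unadjusted p under 0.05, against 29.7% of all genes, and 7 were called without replicate 1 with glutamine, 6 higher and 1 lower (CTSL), against 41.3%.

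The Rag GTPases work as pairs of RRAGA or RRAGB with RRAGC or RRAGD and hold mTORC1 at the lysosome when amino acids are present. RRAGA measured 50.7, 45.8 and 49.9 CPM with glutamine and 54.4, 61.4 and 60.7 CPM without. All libraries without glutamine were higher, with a fold change of 0.27 (SE 0.08, edgeR adjusted p = 0.0943), and 0.30 without replicate 1 with glutamine (adjusted p = 0.0147). RRAGB, with 3 E-box cores in its promoter, measured 25.0, 30.1 and 30.8 CPM with glutamine and 26.5, 28.5 and 28.3 CPM without, a fold change of -0.04 called in neither fit. Of the length-scaled level of this pair, RRAGA took 74.5 ± 2.82% with glutamine and 78.4 ± 0.441% without (SD, n = 3 each), without overlap, though replicate 1 with glutamine, at 77.7%, lay close to the lowest library without, at 77.9%. RRAGC and RRAGD lay at -0.04 and 0.21, and neither was called in either fit. RRAGD, a known target of the TFEB family, measured 34.3, 28.4 and 31.2 CPM with glutamine and 39.6, 38.0 and 31.2 CPM without.

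FLCN, folliculin, activates RRAGC and RRAGD and is needed for mTORC1 to act on TFEB and TFE3. It measured 22.2, 25.2 and 24.2 CPM with glutamine and 19.5, 18.8 and 19.6 CPM without. The means were 23.9 ± 1.51 and 19.3 ± 0.406 CPM (SD, n = 3 each), without overlap. The fold change was -0.31 (SE 0.08, adjusted p = 0.0827), and -0.35 without replicate 1 with glutamine (adjusted p = 0.00465). FNIP1, which forms a complex with folliculin and is not among the 52, was lower too, at 42.1, 61.6 and 56.2 CPM with glutamine and 38.4, 34.8 and 38.7 CPM without. The FNIP1 fold change was -0.51 (adjusted p = 0.0842), and -0.65 without replicate 1 with glutamine (adjusted p = 0.000165).

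Of the mTORC1 core, MTOR, the kinase, measured 157, 147 and 152 CPM with glutamine and 147, 140.1 and 159 CPM without, and RPTOR, its scaffold, measured 47.4, 46.4 and 46.5 CPM with glutamine and 53.3, 43.1 and 48.1 CPM without. Both lay within 0.05 of 0 on the log2 scale and were called in neither fit. TSC1 and TSC2, which form the brake on RHEB, the activator of mTORC1, lay at -0.10 and -0.12 and were likewise called in neither. DEPTOR, an inhibitor bound to mTOR, measured 14.4, 9.10 and 9.62 CPM with glutamine and 14.8, 14.0 and 14.7 CPM without. Its level in replicate 1 with glutamine fell inside the range of the libraries without. The fold change was 0.39 (SE 0.18, adjusted p = 0.189), and 0.64 without that library (adjusted p = 0.000366). Of these 10 genes, 2 (RRAGA and FLCN) had an unadjusted p under 0.05, and 3 were called without replicate 1 with glutamine, both smaller shares than the 29.7% and 41.3% of all genes.

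Most calls appeared only when replicate 1 with glutamine was left out, so its levels were set against the other libraries for each gene. For 35 of the 52 genes (67.3%) it was nearer to the mean of the libraries without glutamine than to the mean of replicates 2 and 3 with it, and the same held for 62.0% of all genes tested. TFEB and CTSB were higher in it than in any library without glutamine. MITF and DEPTOR were at about the level without glutamine. ATG101, VMP1, LAMP1 and SQSTM1 were at about the level of the other libraries with glutamine, and these genes kept fold changes of similar size with and without it.

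**Figure D3:**
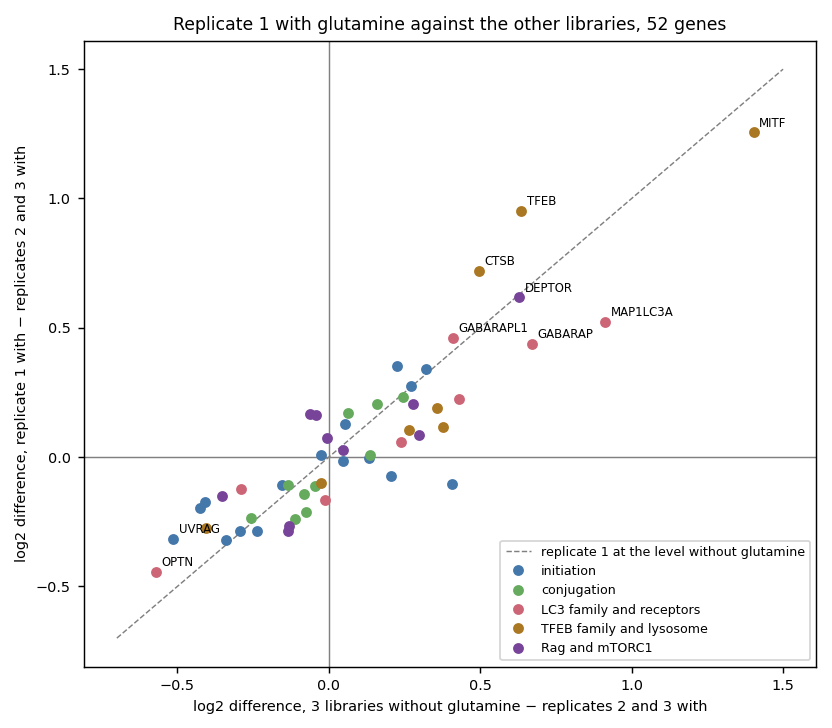
Each point is 1 of the 52 genes: the log2 difference of the libraries without glutamine from replicates 2 and 3 with it (horizontal axis) and the log2 difference of replicate 1 with glutamine from the same replicates (vertical axis). Points on the dashed line have replicate 1 at the level without glutamine, as MITF and DEPTOR nearly do, and TFEB and CTSB lie above it.

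Levels could be compared between genes only per kilobase of exon. By that measure CTSB was the most abundant of the 52, at 25.8 to 43.8 CPM per kilobase over the 6 libraries, followed by RRAGA at 28.8 to 38.7, and these ranges overlapped. GABARAPL2, RB1CC1, CTSL and LAMP1 came next, with means of 25.4, 19.5, 19.4 and 19.0 CPM per kilobase, and the last 3 overlapped. GABARAPL2, at 23.2 to 27.1, overlapped CTSB and also CTSL, which reached 24.4. By the mean of all 6 libraries GABARAP and TFEB were the lowest, at 0.323 and 0.326 CPM per kilobase, then MITF at 0.766 and MAP1LC3A at 2.08. In the libraries without glutamine alone MAP1LC3A, at a mean of 2.59, had a higher mean than OPTN, FLCN, ATG10, ATG7 and ATG101. It overlapped ATG7 there, and also ATG101, whose mean was 2.56. GABARAP, TFEB and MITF were still the lowest. Of the length-scaled level of the 5 LC3 and GABARAP genes, MAP1LC3A took 3.21 ± 0.741% with glutamine and 4.69 ± 0.172% without (SD, n = 3 each), and GABARAPL2 took 51.8 ± 5.37% and 46.7 ± 1.33%.

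**Figure D4:**
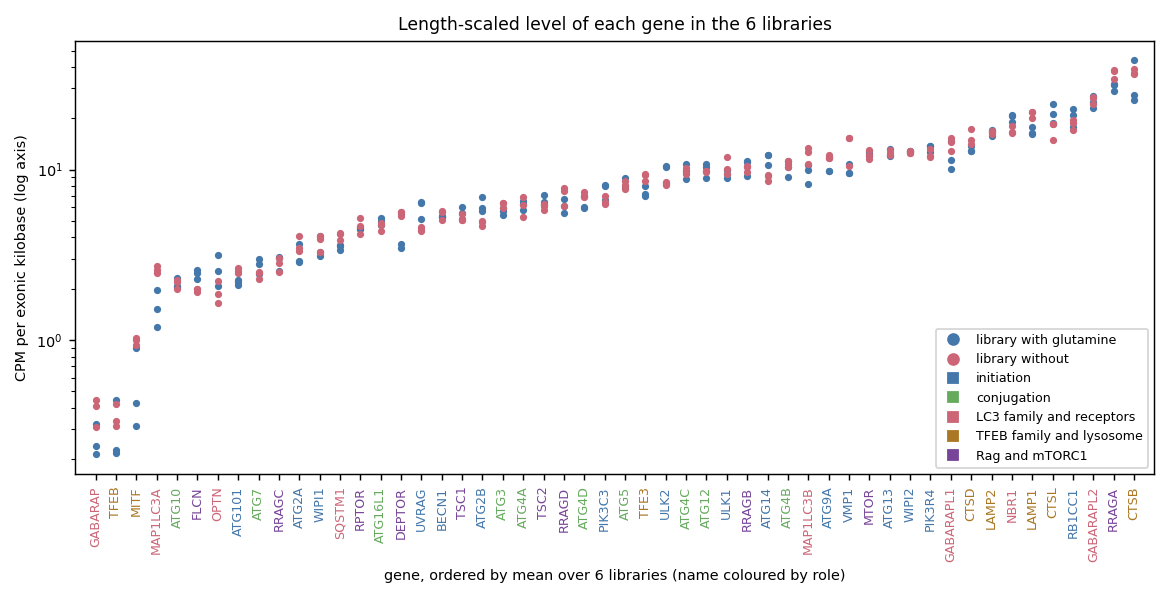
CPM per exonic kilobase (vertical axis, log scale) of the 52 genes in each of the 6 libraries, in order of their mean; blue points are libraries with glutamine, red points those without, and names are coloured by role. By that mean CTSB and RRAGA are highest, and GABARAP, TFEB, MITF and MAP1LC3A are lowest.

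Other genes of the same pathways were read from 5 lists, and none of their genes passed an adjusted p under 0.05 with edgeR in all 6 libraries. Among 16 genes of the GATOR and KICSTOR complexes and the amino acid sensors, 3 had an unadjusted p under 0.05, 1 higher and 2 lower, against 29.7% of all genes, and the median log2 fold change was -0.02. The leucine sensor SESN2 measured 29.9, 25.4 and 27.7 CPM with glutamine and 33.5, 33.5 and 33.8 CPM without, a fold change of 0.28 (adjusted p = 0.0948), and 0.34 without replicate 1 with glutamine (adjusted p = 0.00519). Its paralog SESN3 was lower in every library without glutamine, at 396, 534 and 513 CPM with it and 335, 300.1 and 352 CPM without. The SESN3 fold change was -0.55 (adjusted p = 0.0721), and -0.67 without that library (adjusted p = 0.000135), and DESeq2 called it lower (adjusted p = 0.00657). KPTN was at -0.24, and CASTOR1, the arginine sensor, at 0.24 on under 1 CPM, and their groups overlapped. Without replicate 1 with glutamine KPTN was called lower, at -0.36 (adjusted p = 0.0235), and CASTOR1 was not called.

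Of 19 genes of Ragulator, RHEB and the partners and substrates of mTORC1, 8 had an unadjusted p under 0.05, 4 in each direction, against 29.7% of all genes, with a median of 0.09. EIF4EBP1, an mTORC1 substrate that blocks translation, measured 35.8, 36.9 and 39.8 CPM with glutamine and 51.5, 51.6 and 43.2 CPM without, a fold change of 0.38 (adjusted p = 0.0773), and 0.35 without replicate 1 with glutamine (adjusted p = 0.0147). AKT1S1, an inhibitory subunit of mTORC1, measured 38.0, 27.6 and 28.3 CPM with glutamine and 42.3, 40.3 and 40.9 CPM without, a fold change of 0.40 (adjusted p = 0.109), and 0.56 without that library (adjusted p = 0.000224). DDIT4, a stress-induced inhibitor of mTORC1, was lower without glutamine than in replicates 2 and 3 with it, at 49.3, 137 and 130.4 CPM with glutamine and 54.0, 50.5 and 43.5 CPM without. Its fold change was -1.10 (adjusted p = 0.104), and -1.44 without replicate 1 with glutamine (adjusted p = 2.67e-06).

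The lysosomal lists were mixed. Of 16 subunits of the vacuolar ATPase, the pump that acidifies the lysosome, 5 had an unadjusted p under 0.05, 4 higher and 1 lower, against 29.7% of all genes, with a median of 0.04. ATP6V0A1 was lower without glutamine in every library, at -0.25 (adjusted p = 0.0762). ATP6V0E1 at 0.34, ATP6V0D1 at 0.31 and ATP6V1C1 at -0.10 overlapped between groups. Without replicate 1 with glutamine ATP6V0A1 was called lower and ATP6V0E1 and ATP6V0D1 higher, at -0.25, 0.44 and 0.49 (adjusted p = 0.014, 0.0312 and 0.00237), and ATP6V1C1 was not called. Of 31 other lysosomal hydrolases and membrane proteins tested, 5 had an unadjusted p under 0.05, 3 higher and 2 lower, again against 29.7%, with a median of -0.04. The sphingolipid enzymes SMPD1 and ASAH1 were higher without glutamine in every library, at 0.41 and 0.34, while GAA, the lysosomal glucosidase, was lower in every library, at -0.32. The promoters of 7 of the 21 genes of this list with a window held the E-box core, against 7.43% of all windows. In the other lists 1 of 14 sensor genes, 3 of 16 mTORC1 partners, 3 of 11 pump subunits and 5 of 22 autophagy genes held it. CTSZ was at -0.43, with overlap. Without replicate 1 with glutamine all 4 were called in the same directions, SMPD1 at 0.59, ASAH1 at 0.43, GAA at -0.27 and CTSZ at -0.57 (adjusted p = 0.00101, 0.00217, 0.047 and 0.00276).

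Of 29 other regulators, receptors and fusion proteins of autophagy, 8 had an unadjusted p under 0.05, 2 higher and 6 lower, against 29.7% of all genes, with a median of -0.02. CALCOCO2, a receptor for bacteria and mitochondria, measured 70.3, 95.8 and 92.7 CPM with glutamine and 57.1, 57.9 and 62.8 CPM without, a fold change of -0.54 (adjusted p = 0.0721), and -0.67 without replicate 1 with glutamine (adjusted p = 7.11e-05). WDR45, a relative of the WIPI proteins, was at 0.32, and VAMP8, which fuses autophagosomes with lysosomes, at 0.51, and the groups of both overlapped through replicate 1 with glutamine. Both were called higher without it, at 0.53 and 0.79 (adjusted p = 0.0013 and 0.000338). Without that library, edgeR called 4 of the 16 sensor genes, 10 of the 19 mTORC1 partners, 7 of the 16 pump subunits, 12 of the 31 hydrolases and membrane proteins and 15 of the 29 autophagy genes, each to be read against 41.3% of all genes.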

How the data were processed

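The authors deposited raw counts per Ensembl gene, 1 column per library. Reads were trimmed with cutadapt and Trim Galore, checked with FastQC and aligned with STAR 2.5.2b, on GRCh38, per the submitters' processing notes, which name DESeq2 as well. The counting program, annotation release and strand setting are not given in the sources used here. Per the labels' protocols, a stranded mRNA kit was used, with single-end reads of 50 nt. The column headings read as days 0 and 9, but every sample is labelled day 9. Each sample's description names its heading (day 0 with glutamine, day 9 without), and every direction rests on that.

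Symbols, positions and exonic lengths came from GENCODE 29: 56531 IDs matched and 3576 did not. The test was that of edgeR 4.0.16 in R 4.3.3 (quasi-likelihood F test, legacy = FALSE, TMM, filterByExpr by group), with Benjamini-Hochberg adjustment over all 22613 tested genes, which hold 99.95% of counts, and a threshold of 0.05. The SE is the absolute log2 fold change divided by the square root of F. DESeq2 1.42.0 and limma 3.58.1 (voom) were alternatives. Correlations used a prior count of 2, and the distances of replicate 1 a pseudocount of 0.1 CPM. The deposited normalized table was not used. The scripts were tested on simulated data in which no library stood apart from its group. With 200 changed genes, the fit of 6 libraries recovered 90% of them, with 23 false calls. Without replicate 1 with glutamine it recovered 99.5%, with 21 false calls. With no change simulated, both fits made 0 calls.

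The members, lists and tests were chosen with earlier results of these data known, and the motifs were chosen after values were seen. Per-library values are given for members without overlap, members whose call changes without replicate 1 with glutamine, and some of their paralogs; from each list, the 2 highest and 2 lowest genes are named among those averaging 50 counts or more in the higher group. Nothing in the labels says that a replicate number marks a shared culture, so the numbers were not used as pairs. Across genes, the deviations of same-numbered libraries from their group means had r of -0.02, 0.00 and 0.03. With 3 libraries per group, and replicate 1 with glutamine apart from its group, these values cannot decide whether the numbers mark pairs.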

Additional observations from a re-analysis of the deposited data

How the results depend on the processing

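The count of genes called over the whole table was 1 in all 6 libraries, 0 with upper quartile scaling, 0 with legacy = TRUE, 0 with limma-voom, 2 with no filter and 3041 with DESeq2. It ran from 0 to 9573 when 1 library was left out, with 9573 calls without replicate 1 with glutamine and 17 without replicate 1 without glutamine. The count of members called was 0, and 6 with DESeq2; it ran from 0 to 28 when 1 library was left out. With the replicate block, edgeR called 0 genes and 0 members, and the median of the members was 0.023. That median was 0.024 in the main fit, -0.020 with upper quartile scaling, which moved the median of all genes to -0.043, and 0.011 to 0.054 when 1 library was left out. The number of members without overlap, an alternative added after seeing the data, ran from 15 to 36 with 1 library left out and was 16 and 18 under the other scalings.

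Of 936 fold changes of 72 members and list genes under 13 alternatives, 849 kept their direction and their side of the threshold, 59 passed it newly (46 without replicate 1 with glutamine, 13 with DESeq2), and 28, in 12 genes, changed sign. With upper quartile scaling the sign changed for ATG13 (-0.036), ATG10 (-0.037), GABARAPL2 (-0.004), LAMP2 (-0.037) and RPTOR (-0.002). With 1 library left out, the ranges that crossed 0 were ATG13 -0.027 to 0.056, ATG4A -0.128 to 0.075, ATG4C -0.074 to 0.059, ATG5 -0.054 to 0.050, ATG10 -0.033 to 0.071, ATG12 -0.109 to 0.020, GABARAPL2 -0.011 to 0.095, LAMP2 -0.023 to 0.028, RRAGB -0.131 to 0.010, RRAGC -0.126 to 0.027, MTOR -0.083 to 0.016 and RPTOR -0.033 to 0.121. None of these genes had a fold change beyond 0.045 in either direction in the main fit. Counts were low for GABARAP, at 38 to 80 a library, and for CASTOR1, at 34 to 76. Both genes share exons on the same strand with another annotated gene.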
